A study of Mus musculus with 8 samples.

Results

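The genes that mark cortical layers and hippocampal fields were followed across 8 poly-A RNA sequencing libraries of cultured mouse neurons, 4 labelled KO and 4 labelled WT for Nuak1, an AMPK-related kinase that acts in axon branching. The set held 34 genes chosen by symbol, 10 of the upper layers, 11 of the deep layers, 3 of Cajal-Retzius cells, 5 of hippocampal fields and 5 pallial and pyramidal genes shared by both regions. Of the 32726 gene identifiers in the count table, 33 were matched to these symbols, and Pou3f2 was not analysed here.

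The KO libraries came from a constitutive Nuak1 knockout and the WT libraries from wild-type mice. All cultures were neurons taken from embryos and kept for 5 days in vitro in serum-free medium. The labels give the tissue of every library as cortex or hippocampus, without saying which, while the study describes these cultures as cortical neurons. The labels also give a sequencing lane, A for KO1, KO4, WT1 and WT3 and B for the rest, as well as a strain label. The strain label BJ stood on KO1, KO2 and KO3, BK on KO4, WT2 and WT4, BO on WT1 and BQ on WT3, so that BK alone was found in both genotypes. What the strain labels stand for was not given in the sources used here. The methods give as many animals for each condition of RNA sequencing as there are libraries of each genotype, but nothing ties a library to an animal or a litter, and the p-values measure the spread between these libraries.

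The neocortex is built from the inside out. Deep-layer neurons are born first and project below the cortex under transcription factors such as FEZF2, BCL11B and TBR1, and upper-layer neurons, which project mainly within the cortex, are born later and express CUX1 and CUX2. Cajal-Retzius cells at the surface of the cortex and in the hippocampus secrete reelin, which guides migrating neurons, and the hippocampal fields and the dentate gyrus arise from the medial edge of the same pallium and share its pyramidal genes, such as Neurod6 and Emx1, with the neocortex.

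Library totals ran from 31247078 to 67155004 counts. Nuak1 itself was read at 1.96 to 2.72 CPM (counts scaled to the library total) in the KO libraries and at 51.6 to 82.6 CPM in the WT libraries, so that every library matched its genotype label. KO1, WT1 and WT3 were at an extreme of the 8 libraries more often than the others over the whole transcriptome. KO1 held the highest value in 20.1% of the 16272 genes tested and the lowest in 12.5%, and WT1 the highest in 16.9% and the lowest in 28.7%. WT3 held the highest value in 21.5% and the lowest in 19.6%. As in the methods of the study, genotype differences were fitted with surrogate variables, here 1, an estimate of variation between libraries that genotype does not account for, whose values were -0.56 in KO1 and -0.62 in WT1 and between 0.048 and 0.39 in the other libraries.

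The promoters shown are those of Prox1 and Rorb, the members with the 2 largest genotype differences, and of Inhba and Nr3c2, which varied strongly from library to library. Each is the strand of the gene from 250 bases before to 50 bases after an annotated start (RefSeq, GRCm38.p6), with capitals marking a CAGATG E-box of the kind bound by NEUROD factors or a TATAAA box on either strand.
Prox1, chr1:190170778-190171077, minus strand: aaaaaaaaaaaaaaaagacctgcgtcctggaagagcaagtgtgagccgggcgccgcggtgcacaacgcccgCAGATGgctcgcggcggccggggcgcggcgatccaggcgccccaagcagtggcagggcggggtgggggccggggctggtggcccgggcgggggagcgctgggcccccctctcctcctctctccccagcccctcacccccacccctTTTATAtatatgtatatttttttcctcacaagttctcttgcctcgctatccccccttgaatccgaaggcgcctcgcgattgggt
Rorb, chr19:19111147-19111446, minus strand: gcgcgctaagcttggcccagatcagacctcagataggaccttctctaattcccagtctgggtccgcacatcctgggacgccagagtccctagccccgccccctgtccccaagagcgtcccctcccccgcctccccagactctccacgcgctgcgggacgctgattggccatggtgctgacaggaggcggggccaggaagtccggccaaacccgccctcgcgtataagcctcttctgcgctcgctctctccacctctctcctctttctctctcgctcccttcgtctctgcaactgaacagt
Inhba, chr13:16011601-16011900, plus strand: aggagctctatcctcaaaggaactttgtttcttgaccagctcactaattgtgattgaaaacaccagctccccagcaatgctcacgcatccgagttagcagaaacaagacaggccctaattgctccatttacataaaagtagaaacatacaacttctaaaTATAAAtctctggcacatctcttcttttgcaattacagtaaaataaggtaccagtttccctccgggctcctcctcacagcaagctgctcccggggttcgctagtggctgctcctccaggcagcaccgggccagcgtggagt
Nr3c2, chr8:76902080-76902379, plus strand: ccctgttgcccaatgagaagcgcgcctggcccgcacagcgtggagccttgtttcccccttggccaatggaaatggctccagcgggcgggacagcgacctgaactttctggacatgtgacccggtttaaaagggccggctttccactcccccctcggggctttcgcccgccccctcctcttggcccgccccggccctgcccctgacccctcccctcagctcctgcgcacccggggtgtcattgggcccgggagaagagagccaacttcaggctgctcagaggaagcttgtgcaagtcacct
RefSeq gave 42 promoters for 28 of the members. The Prox1 promoter shown held the E-box and, read on the other strand, the TATAAA letters, while the other RefSeq promoter of Prox1 held no motif searched. The Inhba promoter shown held TATAAA, and those shown of Rorb and Nr3c2 held neither. The E-box letters, searched on both strands, stood in 19% of the member promoters and in 17.2% of 32851 promoters of the same length. The TATAAA letters stood in 21.4% and 13.6%. The octamer ATGCAAAT, the site of POU factors such as the upper-layer POU3F proteins, was found in no member promoter and in 1.74% of all promoters, and the cAMP response element TGACGTCA in none and in 1.79%. The E-box and the octamer can share the letters ATG where they meet.

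The genes of pallial glutamatergic neurons were the strongest of the set. Per kilobase of exon length, the mean level over the 8 libraries was 131 CPM for Neurod6, a transcription factor of postmitotic pyramidal neurons, and 110 CPM for Mef2c, a factor of neuronal maturation that is also made by microglia. The upper-layer gene Lmo4, a LIM-domain adaptor, stood at 51.6 CPM per kilobase, close to the deep-layer gene Ldb2, which encodes a LIM-domain-binding cofactor, at 50.5. Pou3f3, a POU factor of upper-layer neurons and their progenitors, followed at 41.9, and Inhba, which encodes a subunit of activins, at 36.4. Among the regulators of subcortical projection neurons, Fezf2 stood at 27.2, Tbr1 at 21.7 and Bcl11b at 14.6 CPM per kilobase. The means of upper-layer genes ran from 2.91 to 110 CPM per kilobase and those of deep-layer genes from 1.0 to 50.5, so that the groups overlapped in level.

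**Figure D1:**
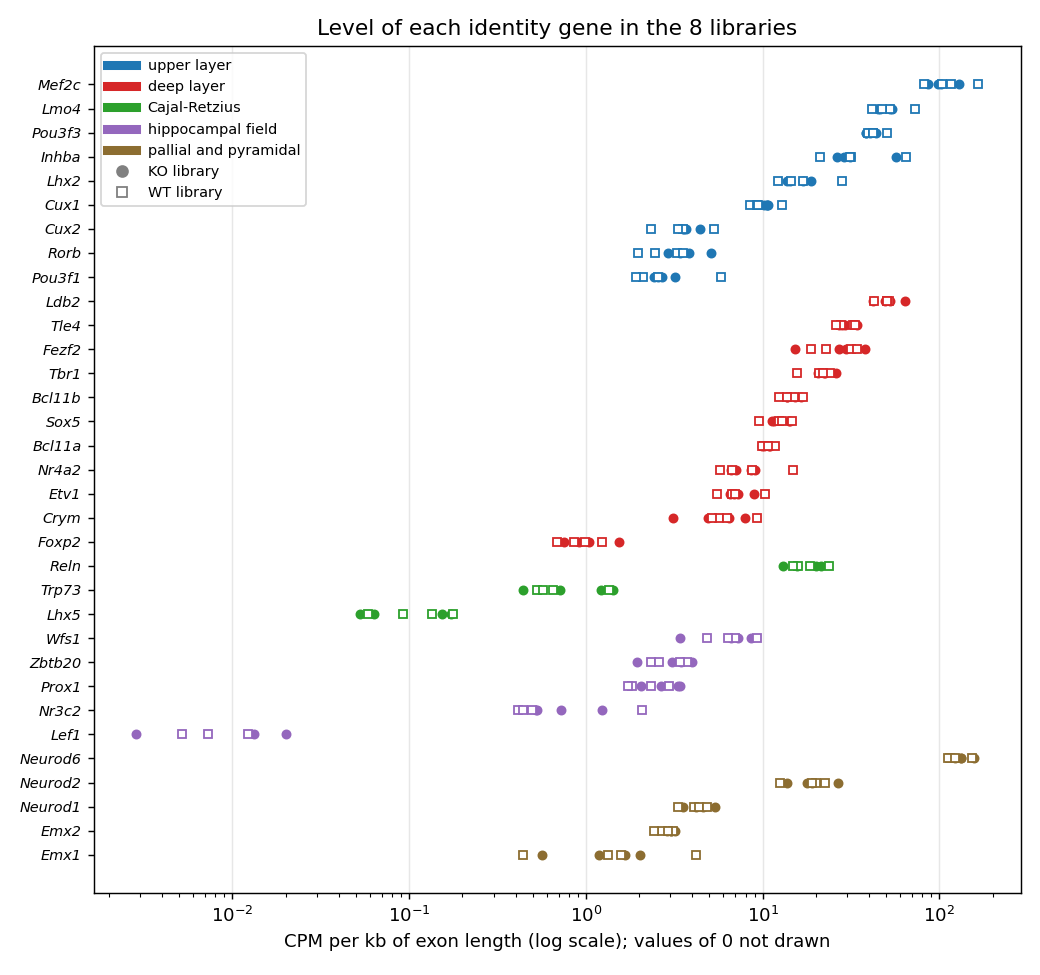
Level of each matched identity gene in every library, as CPM per kilobase of exon length on a log axis, with filled circles for KO and open squares for WT libraries and colours for the gene groups. Neurod6 and Mef2c lie near 100 CPM per kilobase, most layer genes between 1 and 60, and Lhx5 and Lef1 far below the rest. Values of 0, which Lef1 had in KO1 and WT1, are not drawn.

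The genes that separate hippocampal fields from neocortex lay below the strongest layer genes and overlapped the weaker ones. Wfs1, a marker of the CA1 field that upper-layer neurons also express, had a mean of 6.65 CPM per kilobase, Zbtb20, which specifies hippocampal fields and is also made by astrocytes, 3.06, and Prox1, the dentate granule cell factor that some interneurons also express, 2.53. Nr3c2, the mineralocorticoid receptor enriched in hippocampal neurons, had 0.80. Lef1, a WNT effector required for the dentate gyrus, was read 0, 6, 6 and 1 times in KO1 to KO4 and 0, 3, 3 and 4 times in WT1 to WT4. A count of 0 allows up to 3 counts, which is 0.0862 CPM in KO1 and 0.096 CPM in WT1, so that Lef1 was at or near the limit of what was detectable at this depth in every library. Of 8 further hippocampal genes, C1ql2 and Tdo2, markers of dentate granule cells, were below 1 CPM in every library, and Nrp2, a semaphorin receptor, was the most abundant.

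Cajal-Retzius genes were unequal. Reln, which encodes reelin and is also made by interneurons, stood at 17.9 CPM per kilobase, Trp73 at 0.864 and Lhx5 at 0.113. The most abundant of 6 further Cajal-Retzius genes was Ndnf, and Ebf2 was below 1 CPM in every library. In bulk RNA, fewer cells of a type and less RNA per cell cannot be told apart.

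The question of genotype was asked first across all members. None of the 32 members tested passed the Benjamini-Hochberg threshold of 0.05 in the edgeR quasi-likelihood test across all genes, against 8 of 16272 genes (0.0492%). At an unadjusted p under 0.05, 1 member was higher in KO, where 792 genes (4.87%) were, and 0 members were lower, where 936 genes (5.75%) were. The KO libraries lay all above the WT libraries for 0 members and for 250 genes (1.54%), and all below for 0 members and for 140 genes (0.86%). The adjusted p of the members ranged from 0.459 to 0.994, and no other tool or setting run called more than 1 member by adjusted p. DESeq2 with the surrogate variable likewise called 0 members, while it called 168 genes in all, and 1 member had an unadjusted p under 0.05, where 9.6% of all genes tested did. Without KO1 and WT1, and also without WT3 in addition, 0 members passed the adjusted threshold and 1 had an unadjusted p under 0.05, where 4.05% and 8.51% of all genes tested did.

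What these libraries could resolve differed between members. The standard error of the log2 fold change ran from 0.069 to 0.46. For 16 of the 32 members the 95% interval of the fold change lay within 0.5 log2 units on either side of 0, among them the deep-layer genes Bcl11a, Bcl11b, Fezf2, Tbr1, Sox5, Tle4, Ldb2 and Etv1, and for 29 within 1 log2 unit. The exceptions to the wider bound were Trp73, Nr3c2 and Inhba.

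**Figure D2:**
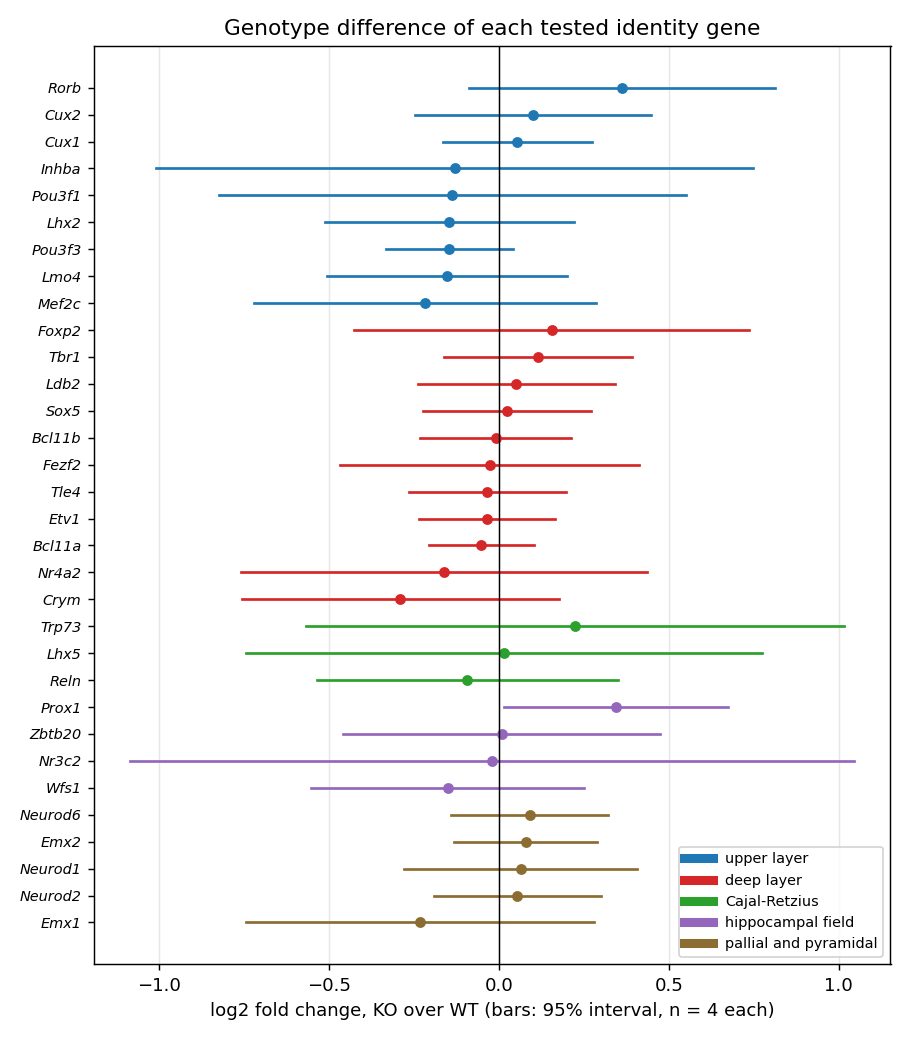
Log2 fold change of KO over WT for the 32 tested identity genes, with 95% intervals from the edgeR fit with 1 surrogate variable (4 libraries of each genotype), grouped by colour. The interval of Prox1 alone lies above 0, and those of Trp73, Inhba and Nr3c2 are the widest, reaching past 1 log2 unit on at least 1 side.

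The group medians of the log2 fold change (KO over WT) lay near that of all tested genes, which was 0.015. The median was -0.14 over 9 upper-layer genes (3 higher, 6 lower), -0.026 over 11 deep-layer genes (4 higher, 7 lower), 0.015 over 3 Cajal-Retzius genes (2 higher, 1 lower), -0.005 over 4 hippocampal field genes (2 higher, 2 lower) and 0.065 over 5 pallial and pyramidal genes (4 higher, 1 lower). These counts give the sign of each fitted difference, not calls. The sign of the upper-layer median was not stable. It was 0.17 without WT3, the library in which most upper-layer genes were highest, 0.082 in lane B alone, which does not hold WT3, and 0.12 with strain label in the fit, where the label of WT3 stood on no other library. It was 0.15 with all libraries and 2 surrogate variables.

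Prox1 had the smallest p of the members. Its locus is chr1:190118035-190170827 (ENSMUSG00000010175). It was read at 13.8, 10.9, 14.1 and 8.45 CPM in KO1 to KO4 and at 12.2, 7.49, 7.15 and 9.66 CPM in WT1 to WT4, a mean of 11.8 ± 2.66 against 9.13 ± 2.34 CPM (SD, n = 4 each). The genotypes overlapped, since KO4 lay below WT1 and WT4. The log2 fold change was 0.34 (SE 0.15, unadjusted p = 0.0419, edgeR adjusted p = 0.459). Leaving out each library in turn it ran from 0.18, without KO3, to 0.43, without KO4, and the unadjusted p of the edgeR fit was 0.154 without KO3, 0.0744 without WT1, 0.0969 without WT2, 0.0804 without WT3 and 0.169 with no surrogate variable. It was 0.17 in lane A alone and 0.49 in lane B alone, and -0.03 once the strain label entered the fit, in which BK was the only label with both genotypes.

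Rorb, a nuclear receptor of layer IV neurons, had the largest fold change (chr19:18930609-19111196, ENSMUSG00000036192). Its values were 56.4, 42.6, 37.7 and 32.4 CPM in KO1 to KO4 and 36.2, 27.1, 39.5 and 22.0 CPM in WT1 to WT4, a mean of 42.3 ± 10.3 against 31.2 ± 8.08 CPM (SD, n = 4 each). KO1 and KO2 lay above every WT library, and KO3 and KO4 did not. The log2 fold change was 0.36 (SE 0.20, edgeR adjusted p = 0.545). Without WT3 it was 0.58 (edgeR adjusted p = 0.0375), the only setting of 22 in which a member passed the threshold, and in that setting 91 genes passed in all (0.554%). In lane A alone the log2 fold change was 0.21, and in lane B alone it was 0.64. Lane B alone gave 7 of 32 members an unadjusted p under 0.05, Rorb and Prox1 among them, and 11.2% of all genes tested there, and no member passed adjustment. Rorb was higher in KO in all 22 settings, which share most of their libraries, with log2 fold changes from 0.21 to 0.64 and adjusted p from 0.0375 to 1.

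**Figure D3:**
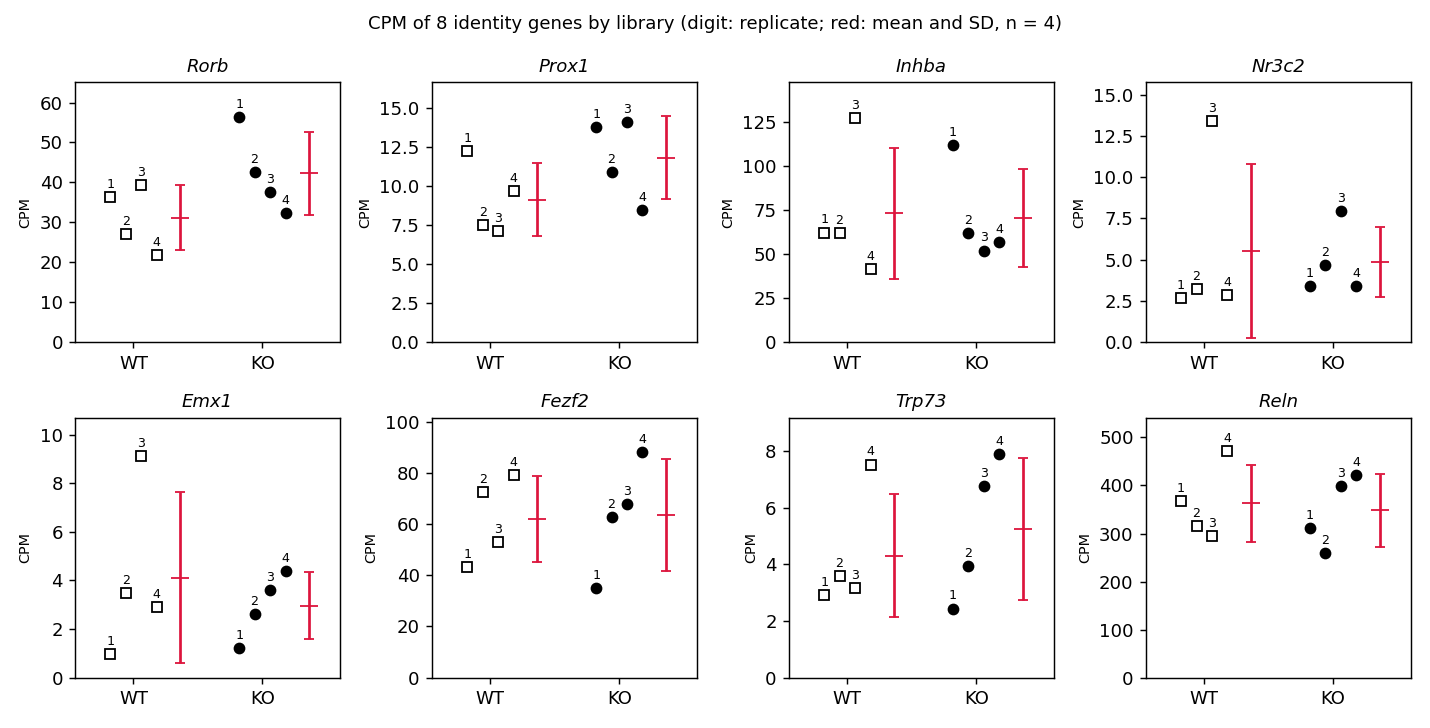
CPM of 8 identity genes in every library, with squares for WT, circles for KO, the replicate number above each point, and the mean and SD of each genotype (n = 4) in red. The genotypes overlap in all 8 panels. WT3 is far above the other WT libraries for Inhba, Nr3c2 and Emx1, and Trp73 is high in KO3, KO4 and WT4.

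The member with the smallest p in each other group did not differ beyond the spread between libraries. Crym, which encodes the thyroid hormone-binding protein mu-crystallin of deep-layer corticofugal neurons (chr7:120186380-120201989), was read at 10.5, 16.5, 26.8 and 21.7 CPM in KO1 to KO4 and at 19.2, 17.4, 31.4 and 21.3 CPM in WT1 to WT4 (log2 fold change -0.29, SE 0.20, edgeR adjusted p = 0.640). It was lowest in KO1 and highest in WT3. Emx1, a homeobox factor of the dorsal pallium (chr6:85187931-85204463), was read at 1.24, 2.60, 3.63 and 4.40 CPM in KO1 to KO4 and at 0.96, 3.47, 9.13 and 2.92 CPM in WT1 to WT4 (log2 fold change -0.23, SE 0.23, edgeR adjusted p = 0.749). Its WT values spanned its KO values on both sides, and the sign of the difference turned without WT3 (0.08).

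Among Cajal-Retzius genes, Trp73, a p53-family factor that these cells depend on (chr4:154056249-154139875), was read at 2.44, 3.96, 6.75 and 7.91 CPM in KO1 to KO4 and at 2.91, 3.59, 3.17 and 7.53 CPM in WT1 to WT4. KO3, KO4 and WT4 were high and the other 5 libraries low, in both genotypes (log2 fold change 0.23, SE 0.35, edgeR adjusted p = 0.847). The sign of this difference turned without WT3 (-0.02). Reln showed the same 3 libraries on top, with 312, 259, 398 and 422 CPM in KO1 to KO4 and 368, 315, 295 and 472 CPM in WT1 to WT4. Both genes were lowest in a KO library, Trp73 in KO1 and Reln in KO2. Lhx5, a LIM-homeobox factor, lay at 0.145 to 0.470 CPM in KO libraries and 0.160 to 0.482 CPM in WT libraries, on counts of 5 to 23. Of the 6 further Cajal-Retzius genes, 5 were tested and 1 was higher in KO at an unadjusted p under 0.05, where 4.87% of all genes were, Calb2 (log2 fold change 0.66, SE 0.17, edgeR adjusted p = 0.312), which encodes calretinin, is also made by interneurons, and was named after its values were seen. It was read at 13.2 to 16.9 CPM in KO and at 5.6 to 15.7 CPM in WT libraries, which overlapped.

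Upper-layer genes differed more between libraries than between genotypes. WT3 was the highest of the 8 libraries for 8 of the 9 upper-layer genes (88.9%), where it was the highest for 21.5% of all tested genes. The exception was Rorb, for which KO1 was highest. WT4 was the lowest library for 5 of the 9 (55.6%), against 4.26% of all tested genes. These are counts within single libraries, given without a test. WT3 was also the highest library on the score of glutamatergic neuron markers (0.47, highest for 3 of 6 genes) and of pallial and pyramidal genes (0.39), and the lowest on that of progenitor and astrocyte markers (-0.44), whose part in the upper-layer values was not tested.

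Cux1 and Cux2, the homeobox factors of layers II to IV, show the pattern on close values. Cux1 was read at 81.0, 81.8, 80.5 and 78.0 CPM in KO1 to KO4 and at 64.9, 70.5, 98.0 and 71.8 CPM in WT1 to WT4. The 4 KO libraries lay within 4 CPM of each other, between WT3 and the other WT libraries. Cux2 was read at 29.4, 28.8, 35.4 and 28.3 CPM in KO1 to KO4 and at 18.8, 28.2, 42.4 and 26.5 CPM in WT1 to WT4, again with WT3 above and WT1, WT2 and WT4 below every KO library. Without WT3, Cux1, Cux2 and Rorb were the members with an unadjusted p under 0.05, 3 of 32 where 15.6% of all genes tested in that setting were, and Rorb passed adjustment.

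The other upper-layer genes that were highest in WT3 stood above the next library by unequal amounts. Pou3f1, a POU factor, was read at 17.4 CPM in WT3 and at 5.77 to 9.66 CPM in the other 7 libraries. Lhx2, a LIM-homeobox factor of cortical progenitors and upper-layer neurons, was read at 87.6 CPM there and at 38.1 to 58.5 CPM elsewhere. Mef2c reached 1230 CPM in WT3 against 605 to 952 CPM, Lmo4 241 against 137 to 178 CPM, and Pou3f3 154 against 118 to 133 CPM. Inhba was read at 112, 61.9, 52.2 and 56.8 CPM in KO1 to KO4 and at 62.4, 62.1, 127 and 41.8 CPM in WT1 to WT4, so that 1 library of each genotype was about as high. Of 7 further upper-layer genes, WT3 was the highest library for 4 (57.1%). All 7 had a fitted genotype difference below 0, as did 7524 of the 16272 genes tested. Of the 7, 0 passed the adjusted threshold or an unadjusted p under 0.05 in the edgeR test.

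**Figure D4:**
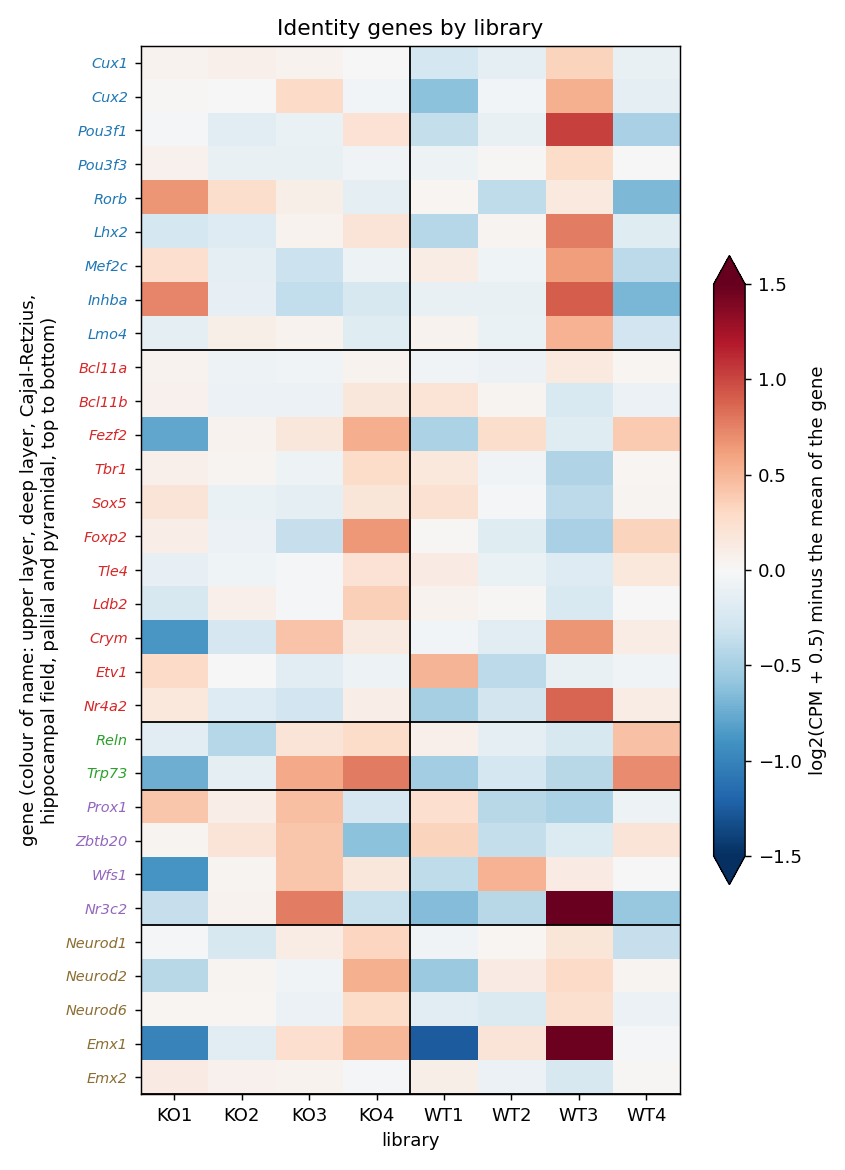
Each identity gene in each library as log2(CPM + 0.5) minus the mean of that gene over the 8 libraries, with KO libraries left of the vertical line and groups separated by horizontal lines. The colour scale ends at 1.5 on either side. WT3 is red across the upper-layer genes, and KO4 is red for Fezf2, Foxp2, Trp73 and Neurod2.

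Deep-layer genes showed other libraries at the extremes. KO4 was the highest library for 5 of the 11 (45.5%), against 10.4% of all tested genes. These 5 were Fezf2, Tbr1, Foxp2, Tle4 and Ldb2. WT3 was the lowest library for 5 of the 11 (45.5%), against 19.6% of all tested genes, namely Bcl11b, Tbr1, Sox5, Foxp2 and Tle4, and it was the highest for Bcl11a, Crym and Nr4a2. Bcl11a, a zinc finger factor of projection neurons, kept the narrowest range of all members, 131 to 144 CPM in KO libraries and 131 to 154 CPM in WT libraries, a ratio of 1.18 between the highest and the lowest library.

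Fezf2, the selector of subcerebral projection neurons, was read at 35.0, 62.7, 67.9 and 88.0 CPM in KO1 to KO4 and at 43.0, 72.6, 52.9 and 79.1 CPM in WT1 to WT4. Its lowest values fell in KO1 and WT1, and the genotypes overlapped over nearly their whole range. Tbr1, a T-box factor of layer VI, was read at 124, 122, 112 and 143 CPM in KO1 to KO4 and at 132, 114, 86.3 and 121 CPM in WT1 to WT4. Sox5, which keeps deep-layer fates apart, ranged from 162 to 206 CPM in KO and from 137 to 211 CPM in WT libraries. Tle4, a corepressor of layer VI neurons, ranged from 126 to 159 CPM and from 120 to 154 CPM.

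The other deep-layer genes overlapped as widely. Bcl11b, which is also strong in striatal neurons, lay at 111 to 133 CPM in KO libraries and 100 to 137 CPM in WT libraries. Foxp2, a forkhead factor of layer VI that striatal neurons also express, lay at 10.2 to 20.8 CPM and 9.23 to 16.6 CPM. Ldb2 lay at 111 to 169 CPM and 112 to 136 CPM. Etv1, an ETS factor of layer V, was highest in WT1 at 61.1 CPM and lowest in WT2 at 32.6 CPM, and Nr4a2, an orphan nuclear receptor of the subplate and claustrum, was read at 60.6 CPM in WT3 against 23.1 to 36.7 CPM in the other libraries. Of 11 further deep-layer and subplate genes, headed in abundance by Lmo3, 10 were tested, none passed the adjusted threshold in the edgeR test or an unadjusted p under 0.05, and Cplx3 was below 1 CPM in every library.

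Hippocampal field genes did not move together over the libraries. Prox1 and Zbtb20 were highest in KO3. Zbtb20 was read at 94.1, 105, 122 and 59.9 CPM in KO1 to KO4 and at 115, 71.7, 79.8 and 105 CPM in WT1 to WT4, with KO4 lowest and both genotypes spread over most of the range. Wfs1 was read at 12.1, 23.5, 30.4 and 25.7 CPM in KO1 to KO4 and at 17.3, 33.0, 24.9 and 22.7 CPM in WT1 to WT4. It was lowest in KO1 and WT1, as Fezf2 and Emx1 were. Nr3c2 was read at 3.39, 4.65, 7.96 and 3.44 CPM in KO1 to KO4 and at 2.66, 3.22, 13.4 and 2.84 CPM in WT1 to WT4. Its highest library, WT3, was 5.05 times its lowest. Of the 8 further hippocampal genes, 7 were tested, and none passed the adjusted threshold or an unadjusted p under 0.05 in the edgeR test. All 7 had a fitted difference below 0, as did 7524 of the 16272 genes tested. WT3 was the highest library for 3 of the 6 further hippocampal genes that reached 1 CPM, against 21.5% of all tested genes.

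Pallial and pyramidal genes followed the libraries as well. KO4 was the highest library for 3 of the 5, Neurod1, Neurod2 and Neurod6, basic helix-loop-helix factors of the pyramidal lineage. Neurod2 was read at 43.2, 59.5, 55.9 and 84.0 CPM in KO1 to KO4 and at 39.2, 63.2, 70.6 and 59.4 CPM in WT1 to WT4, with its lowest values in KO1 and WT1. Neurod6 lay at 264 to 339 CPM in KO libraries and 242 to 331 CPM in WT libraries, and Neurod1 at 9.71 to 14.6 CPM and 9.03 to 13.2 CPM. Emx2, a homeobox factor with a gradient towards the hippocampal side of the pallium, lay at 7.69 to 8.54 CPM and 6.48 to 8.32 CPM. Emx1 had the widest range of the members read in every library, with a ratio of 9.50 between WT3 and WT1.

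Each library was then placed by region. A score was taken as the mean over a group's genes of log2(CPM + 0.5) minus the mean of each gene over the 8 libraries, leaving out Lhx5 and Lef1, which were below 1 CPM in every library. The study describes the cultures as cortical, but no library labelled as 1 region only was there to set a scale, so that libraries could be placed only relative to each other. The hippocampal field score minus the neocortical score (upper-layer and deep-layer genes) was -0.21, 0.15, 0.56 and -0.37 in KO1 to KO4 and -0.04, -0.08, 0.005 and -0.02 in WT1 to WT4. KO3 stood highest and KO4 lowest, both KO libraries, and the 4 WT libraries lay within 0.1 of each other. With the further hippocampal genes added, the same difference was highest in KO3 at 0.34 and lowest in KO1 at -0.30, with KO4 at -0.27, and the WT libraries ran from -0.09 to 0.13. KO3 was also the highest library on the scores of progenitor and astrocyte markers (0.50), interneuron markers (0.41) and microglial markers (1.5). By summed CPM, KO1 was above KO3 for progenitor and astrocyte markers (1967 against 1912) and for interneuron markers (355 against 328). Some of these cells express Zbtb20 or Prox1, and their part in the hippocampal field score of KO3 was not tested. The 4 genes behind the hippocampal score did not agree on an order. KO3 was above 0 for all 4, but WT3 was the highest library for Nr3c2 and the lowest for Prox1.

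The balance of upper-layer against deep-layer genes, as the difference of their scores, was 0.25, 0.03, 0.01 and -0.27 in KO1 to KO4 and -0.20, -0.01, 0.63 and -0.42 in WT1 to WT4. Both the highest and the lowest library were WT, and the KO libraries lay between them. The score of Cajal-Retzius genes, here Reln and Trp73, was -0.45, -0.28, 0.38 and 0.53 in KO1 to KO4 and -0.22, -0.20, -0.33 and 0.58 in WT1 to WT4. The libraries with a score above 0 for Cajal-Retzius genes came from both genotypes and both lanes.

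**Figure D5:**
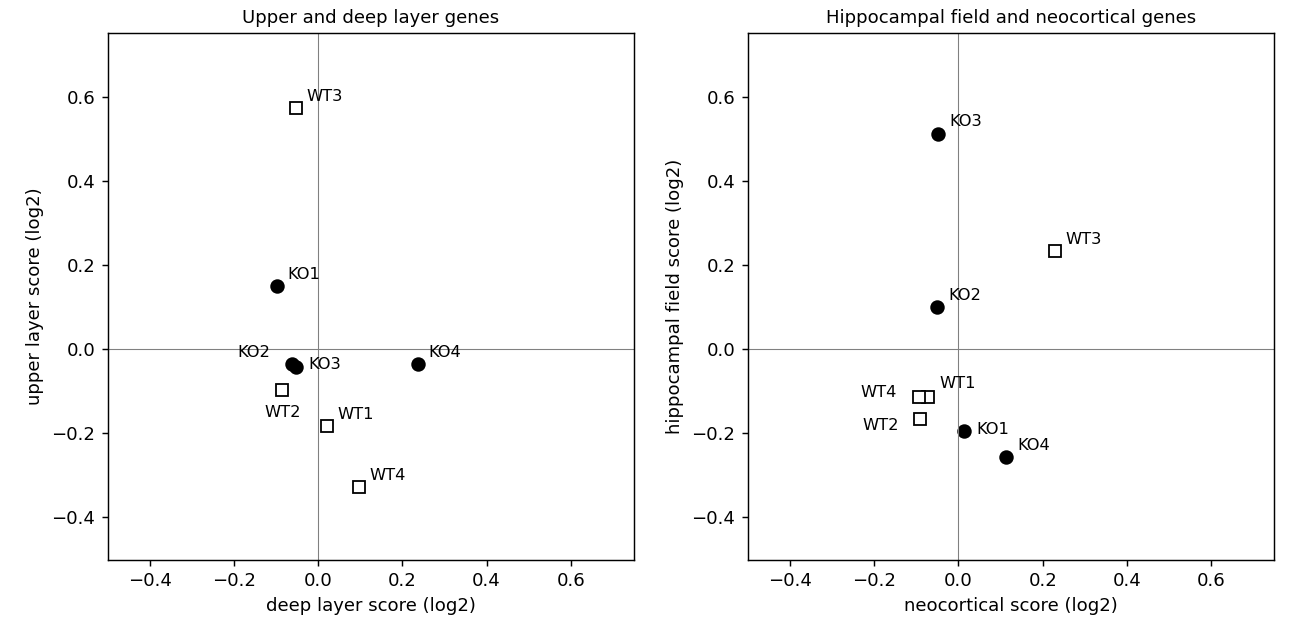
Left, score of upper-layer against deep-layer genes in each library, and right, score of hippocampal field against neocortical genes, both in log2 units relative to the mean of the 8 libraries, with filled circles for KO and open squares for WT. WT3 is highest in the upper-layer score at 0.57 and KO3 in the hippocampal field score at 0.51, and the genotypes overlap in all 4 scores.

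Markers of the other cells these cultures could hold were read alongside. Neuronal and glutamatergic markers summed to 3948 to 4581 CPM in KO libraries and 4062 to 4597 CPM in WT libraries, with Map2 the most abundant of 6. Of these 6, 1 was lower in KO at an unadjusted p under 0.05 in the edgeR test, where 5.75% of all genes tested were. This was the vesicular glutamate transporter gene Slc17a7 (log2 fold change -0.32, SE 0.11, edgeR adjusted p = 0.390), named after its values were seen. It was read at 65.4 to 121 CPM in KO libraries against 104 to 139 CPM in WT libraries. Interneuron markers, 10 genes headed by Gad1, summed to 217 to 355 CPM and 195 to 322 CPM, and Reln and Prox1 are also expressed by such cells. Progenitor and astrocyte markers, 11 genes headed by Fabp7, summed to 1531 to 1967 CPM and 1319 to 1877 CPM, lowest in WT3, and Zbtb20 is also expressed there. The part of these cells in the levels of the shared genes was not tested.

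Of 9 striatal markers, Drd1 was the most abundant, and Adora2a, Isl1 and Six3 were below 1 CPM in every library. The 9 summed to 30.4 to 35.0 CPM in KO libraries and 37.0 to 49.5 CPM in WT libraries, without overlap, and this sum was not tested. Their score overlapped, at -0.12 to 0.06 in KO and -0.07 to 0.12 in WT libraries. Of the 6 tested, 3 had a fitted difference above 0 and 3 below. Ppp1r1b, named after its values were seen, was read at 4.86 to 7.61 CPM in KO libraries against 2.56 to 6.78 CPM in WT libraries (log2 fold change 0.41, SE 0.17, edgeR adjusted p = 0.447). Bcl11b and Foxp2, which striatal neurons share, overlapped between the genotypes. Microglial markers summed to 16.3 to 68.3 CPM in KO libraries and 21.9 to 37.5 CPM in WT libraries, highest in KO3. Of the 10, P2ry12 and Tmem119 were below 1 CPM in every library. Mef2c, which microglia also make, was read at 640 CPM in KO3, and the part of these cells in its level was not tested. Endothelial markers summed to 13.7 to 29.1 CPM and 12.3 to 22.0 CPM, with Slco1c1 the most abundant and 6 of 8 below 1 CPM in every library. The 3 thalamic markers matched summed to 3.56 to 6.09 CPM and 3.25 to 6.02 CPM, with Tcf7l2 the most abundant and Gbx2 below 1 CPM in every library.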

How the data were processed

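Poly-A RNA of 8 cultures (4 KO, 4 WT) was prepared with a stranded kit and sequenced. Read length and layout differ between the labels and the methods. The deposited table holds unnormalised counts of reads for each Ensembl gene, which the authors made with bcl2fastq 2.17.1.14, cutadapt 1.10, Bowtie2 2.2.8 (ribosomal reads discarded), STAR 2.5.3a on mm10 and HTSeq 0.6.1p1. The authors did not pool replicates, and tested the counts with DESeq2 and surrogate variables. Strand use in the counting was not given in the sources used here. Some members overlap an opposite-strand gene of the table in exons (Bcl11a, Reln, Trp73, Prox1, Zbtb20, Nr3c2) and Neurod1 shares exon bases with Cerkl on its own strand, so their counts are uncertain to that extent. Library totals, 31247078 to 67155004 counts, set the precision.

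The members and the other gene lists were chosen with earlier results of these data known. Groups were taken from the labels. Genes kept by filterByExpr (16272) were TMM-normalised and tested with edgeR 4.0.16 (robust quasi-likelihood, R 4.3.3) with 1 surrogate variable (sva 3.50.0) and Benjamini-Hochberg adjustment at 0.05, and the code was tested on simulated data. CPM used the library totals. Levels between genes were divided by exon length (GENCODE M1, by identifier). Fold changes are printed for members with an unadjusted p under 0.05, an absolute log2 fold change of at least 0.5, no overlap between genotypes, or the smallest p of their group. Genes of other lists are named where they pass the adjusted threshold, are the most abundant of their list, or lie near 0, and some that this rule names are not reported here. Of 90 such genes 89 were matched, 5 by an older symbol. The alternatives tried were other surrogate variable numbers, lane, strain label or replicate number as a term, DESeq2 1.42.0, other size factors and filters, each lane alone and libraries left out.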

Additional observations from a re-analysis of the deposited data

Results flagged for a closer look

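In each group of 4 libraries, the highest or lowest value was marked where its distance from the next value, as a share of the range of the group, was above Dixon's 95% critical value. This held for 6 of 66 groups (33 members in 2 genotypes), where chance flags about 1 in 20, or 3.3. Of the 6, 3 lay in WT3. There, Pou3f1 was high at 17.39 CPM (5.765 to 7.654 in the other WT libraries), Nr3c2 was high at 13.4 CPM (2.656 to 3.216), and Ldb2 was low at 112.3 CPM (132.3 to 136.2). Trp73 was high in WT4 at 7.529 CPM (2.912 to 3.589 in the other WT libraries), and was 6.75 CPM in KO3 and 7.91 CPM in KO4. Inhba was high in KO1 at 112.1 CPM (52.16 to 61.95 in the other KO libraries), and Cux2 in KO3 at 35.39 CPM (28.27 to 29.37).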

How the results depend on the processing

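The 5 fold changes, 5 group medians and 3 counts were recomputed under 22 settings and the region scores under 3, and 264 of these values kept their direction and their side of the threshold or stayed within the spread. No member passed the adjusted threshold in any setting except Rorb without WT3 (log2 fold change 0.5834, edgeR adjusted p = 0.03748). The number of genes past the threshold, 8 in the reported fit, was 4 with no surrogate variable, 4 with 2, 4 with lane as a term, 1 with strain label, 168 with DESeq2, 45 without a filter on low counts, 0 in lane A, 99 in lane B, 3 without KO1 and WT1, 3 without WT3, KO1 and WT1 (a setting chosen after seeing the data), and 3 to 91 leaving out each library in turn, the highest without WT3. The number of members at an unadjusted p under 0.05, 1 in the reported fit, was 0 with no surrogate variable (2.52% of all genes tested), 2 with 2 (12.1%), 0 with lane as a term (2.94%), 0 in lane A (0.591%), 7 in lane B (Fezf2, Foxp2, Nr3c2, Pou3f3, Prox1, Rorb and Sox5, with 11.2%) and 0 to 3 leaving out each library (5.45% to 15.6%), with 0 to 1 past adjustment. With strain label in the fit, the deep-layer, Cajal-Retzius and pallial medians were 0.1629, 0.5176 and 0.4367, in lane B the hippocampal field median was 0.4033, and leaving out each library the upper-layer median ran from -0.2444 to 0.1675. The sign turned for Emx1 with 2 surrogate variables (0.05104), with the strain label (0.4367), without WT3 (0.07942, range leaving out each library -0.376 to 0.07942) and without WT3, KO1 and WT1 (0.1026). It turned for Crym with the strain label (0.1557), in lane B (0.1078), without WT1 (0.03725, range -0.4417 to 0.03725) and without WT3, KO1 and WT1 (0.1311), for Prox1 with the strain label (-0.02884), and for Trp73 in lane B (-0.06679) and without WT3 (-0.01766, range -0.01766 to 0.5793). The cause was not tested. Same-numbered KO and WT libraries deviated together for number 1 (correlation 0.8003), with 0.01216, 0.2492 and 0.002253 for the others, so the numbers were not taken as pairs. With the replicate block, 3 genes passed without a surrogate variable and 3 with it, and 1 and 2 members had an unadjusted p under 0.05, where 7.17% and 9.99% of all genes tested did. The upper-layer median was 0.06921 with the block and 1 surrogate variable.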
